A study of Arabidopsis thaliana with 28 samples.

Results

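ATCOPIA93, ATCOPIA78, ATCOPIA13 and ATCOPIA21 are Copia retrotransposon families of Arabidopsis thaliana, each with copies known to move. They were chosen by family name, with earlier results of these data known. They are 4 of the 83 named transposable element families, and 4 of the 25 Copia families, that the authors' deposited table lists. RNA came from aerial parts of 6-day-old seedlings, with 3 libraries for Col-0, the wild type, and 3 for the caa39 mutant. The mutant affects topoisomerase VI, which cuts duplex DNA, lets another duplex through and seals the break. Both genotypes were stratified for 3 days at 4 °C and grown at 21 °C with 16 h of light and 8 h of darkness, and the labels name no heat or chemical treatment for either. caa39 is a single mutant line, and the labels name no complemented line or other mutant line. Expression was given as group means of normalised reads per family, a sum over copies dispersed in the genome, so no coordinates belong to the values. Whether 1 copy or many gave the reads cannot be told from a family sum. The table holds no genes, so neither the labelled tissue nor the mutated locus was checked against it.

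A Copia element is transcribed from its long terminal repeat, and its RNA serves both as the message for its proteins and as the template that reverse transcriptase copies into DNA. That DNA can insert elsewhere in the genome, so transcript level is an early step of mobility but not a measure of it. In Arabidopsis most such elements are kept quiet by DNA methylation and by histone H3 lysine 9 methylation. ATCOPIA93 contains Evadé, which becomes active when DNA methylation is lost. ATCOPIA78 is ONSEN, whose repeat carries heat-response elements and which is known for strong transcription under heat stress. ATCOPIA13 and ATCOPIA21 are among the families seen to transpose in lines lacking DDM1, a chromatin remodeller that DNA methylation in heterochromatin depends on.

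The families did not move together in caa39: in the authors' deposited table ATCOPIA93 fell to 0.211 of its wild-type level, ATCOPIA78 rose 1.81-fold and ATCOPIA13 rose 1.91-fold. By the wild-type mean that its overall and caa39 means leave, ATCOPIA21 had reads in caa39 alone. Of the 4 families, 3 were higher and 1 was lower in caa39 in the authors' deposited table, beside 48.2% higher and 51.8% lower among all 83 named families listed. The list holds only families at an adjusted p below 0.05, so 100.0% of it is called and 4 called members say nothing about them. Divided by the raw p-values, the adjusted ones fit 23918 tests in the authors' comparison. Of these at least 35.7% passed, so a call was common among everything tested. In aerial parts taken whole, fewer cells of a type and less RNA per cell cannot be told apart. The values per library given here were solved from the deposited means as whole reads over a size factor, and the letters a, b and c order the libraries of a genotype by size factor and are no replicate numbers. In all 4 families the libraries of the genotypes did not overlap, as in 98.8% of the 83. The 6 libraries held 20791 to 31566 reads in the listed entries, and 1 read was worth 0.732 to 1.22 normalised reads.

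ATCOPIA93, the Evadé family, held 253, 114 and 208 normalised reads in wild-type libraries a, b and c. The corresponding caa39 values were 36.6, 38.9 and 46.0. The genotypes did not overlap, and the lowest wild-type library stood 68.1 normalised reads above the highest caa39 library. The wild-type mean was 192 ± 71.0 and the caa39 mean 40.5 ± 4.87 (SD, n = 3 each), on 509 and 139 reads. The authors' deposited table gives a fold of 0.211 with an adjusted p of 1.16e-17. By that adjusted p the family was placed 11th of the 83, and its raw p was the 1029th smallest of the 23918 tests. Over pooled reads the ratio was 0.206 (exact 95% counting interval, 0.170 to 0.249). Such intervals cover counting error only. On the log2(normalised reads + 0.5) scale limma gave a log2 fold change of −2.16 ± 0.31 (SE; adjusted p = 0.00138 over the 83 families).

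ATCOPIA78, the ONSEN family, held 38.2, 44.9 and 23.1 normalised reads in wild-type libraries a, b and c. Those of caa39 held 54.9, 59.5 and 77.7. All caa39 libraries lay above all wild-type libraries, the nearest pair 9.99 normalised reads apart. The means were 35.4 ± 11.2 and 64.0 ± 12.0 (SD, n = 3 each), on 94 and 218 reads. The authors' deposited table gives a fold of 1.81 with an adjusted p of 0.0495, and the largest adjusted p it lists is 0.0499. The pooled reads gave 1.75 (exact 95% counting interval, 1.37 to 2.25). In limma the log2 fold change was 0.88 ± 0.28 (SE; adjusted p = 0.0242). The call was lost when caa39 library b or c was left out, with adjusted p-values in limma of 0.0512 and 0.0768.

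ATCOPIA13 held 12.7, 23.0 and 21.9 normalised reads in libraries a, b and c of the wild type, and 42.5, 43.8 and 24.1 in caa39 libraries a, b and c. The genotypes were separated by 1.03 normalised reads, the distance between caa39 library c and wild-type library b, which is less than what 1 read was worth in either of those libraries. caa39 libraries a and b stood well above the wild type, while caa39 library c lay beside it. The means were 19.2 ± 5.65 and 36.8 ± 11.0 (SD, n = 3 each), on 50 and 133 reads. The authors' deposited table gives a fold of 1.91 with an adjusted p of 0.0364. The pooled ratio was 2.01 (exact 95% counting interval, 1.44 to 2.84). The limma log2 fold change was 0.92 ± 0.34 (SE; adjusted p = 0.0383). This call was lost when wild-type library a or c was left out (adjusted p of 0.0967 or 0.0521 in limma), and when caa39 library a or b was (0.109 or 0.110).

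ATCOPIA21 had 0 reads in all 3 wild-type libraries and 5, 10 and 8 reads in caa39 libraries a, b and c. These correspond to 3.66, 8.27 and 8.75 normalised reads, a mean of 6.89 ± 2.81 (SD, n = 3). The authors' deposited table prints a wild-type mean of 1 for this family, while its overall and caa39 means leave a wild-type mean of 0, so its deposited fold is not used here. Against a floor of 3 reads over the wild-type group, caa39 was at least 5.79-fold higher, with the caa39 reads taken as exact. Without wild-type library a the bound was 3.72-fold, the same floor being set against less sequencing. The adjusted p was 0.00768 in the authors' deposited table. In limma it was 0.000227, where all wild-type values are the pseudocount alone and have no spread. ATCOPIA21 was the only one of the 4 with a mean under 10 normalised reads, and a filter at that level removed it.

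**Figure D1:**
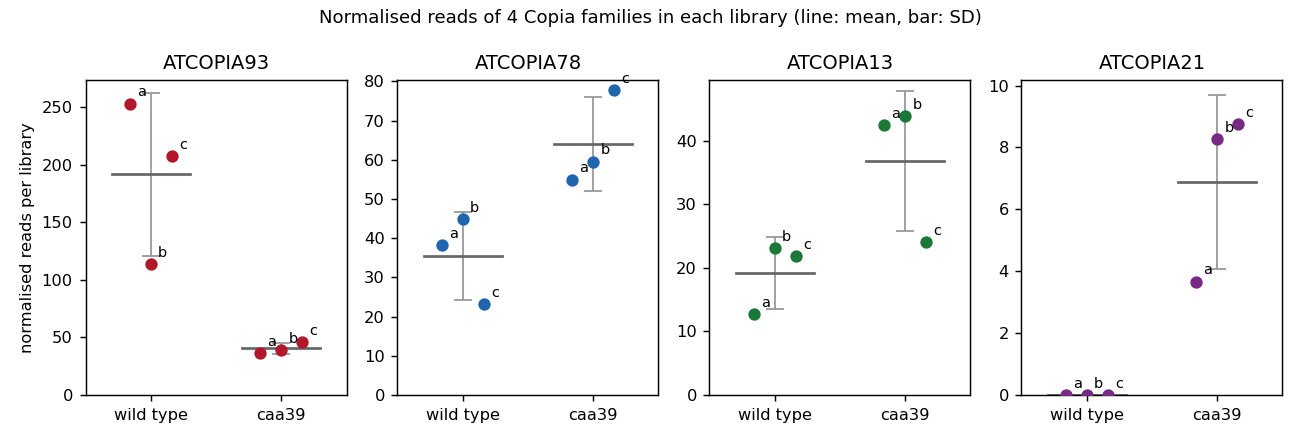
Normalised reads per library (vertical axes, from 0, a scale for each family) of the 4 families in wild type and caa39; points are libraries a, b and c, horizontal lines the mean and bars the SD (n = 3). ATCOPIA93 spans 114 to 253 in wild-type libraries and 36.6 to 46.0 in mutant ones, ATCOPIA78 and ATCOPIA13 shift upward with narrow gaps between genotypes, and ATCOPIA21 is at 0 in all wild-type libraries.

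With each library scaled to its total of listed reads instead of the authors' size factors, the median log2 fold change of all 83 families moved from −0.35 to −0.04. On that scale the directions and calls of all 4 held in limma, with log2 fold changes of −1.85 for ATCOPIA93, 1.19 for ATCOPIA78, 1.22 for ATCOPIA13 and 3.95 for ATCOPIA21. Beside them, 69 of all 83 families were called on that scale, 40 higher and 29 lower. At the authors' size factors limma called 3 higher and 1 lower of the 4, beside 47.0% higher, 50.6% lower and 97.6% in either direction among the 83.

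The ratio of the reads of a pair of families within a library does not depend on how libraries are scaled. A change in it between genotypes does not depend on element length. The log2 ratios that were tested carry a pseudocount added after scaling, so they are not wholly free of the scaling. ATCOPIA93 had 6.64, 2.54 and 9.00 reads per read of ATCOPIA78 in wild-type libraries a, b and c. In caa39 libraries a, b and c it had 0.667, 0.653 and 0.592. ATCOPIA93 reads thus outnumbered ATCOPIA78 reads in all wild-type libraries and were outnumbered in all caa39 libraries. On the log2 scale with a pseudocount of 0.5 the ratio went from 2.40 ± 0.95 to −0.65 ± 0.09 (SD, n = 3 each), a difference of −3.04. Against ATCOPIA13, the log2 ratio of ATCOPIA93 went from 3.25 ± 0.99 to 0.18 ± 0.64 (SD, n = 3 each), a difference of −3.08. Neither ratio overlapped between genotypes, and each had an exact permutation p of 0.1, two-sided, the smallest that 3 against 3 allows (0.12 after Benjamini-Hochberg adjustment over the 6 pairs of families). ATCOPIA93 was lower, and ATCOPIA78 and ATCOPIA13 higher, in every caa39 library than in any wild-type library. The lack of overlap and the exact permutation p of 0.1 were thereby fixed, and are no further evidence.

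ATCOPIA78 and ATCOPIA13 had close average changes but did not vary alike from library to library. Their log2 ratio was 1.55, 0.95 and 0.08 in libraries a, b and c of the wild type, and 0.37, 0.44 and 1.67 in caa39 libraries a, b and c. The genotypes overlapped, and the difference was −0.03 with an SE of 0.60 (exact permutation p = 1, two-sided, n = 3 each). That SE leaves room for a difference of either sign, and leaving out 1 library moved it between −0.46 and 0.31. caa39 library c held the highest ATCOPIA78 value and the lowest ATCOPIA13 value of the mutant. The 3 pairs that include ATCOPIA21 also had an exact permutation p of 0.1 (two-sided; 0.12 adjusted). For ATCOPIA93 over ATCOPIA21 this was likewise fixed by their separations in opposite directions. At a pseudocount of 5 the exact permutation p was 0.3 for ATCOPIA78 over ATCOPIA21 and 0.6 for ATCOPIA13 over ATCOPIA21. The wild-type ratios of these pairs are set by the pseudocount and are not given as measured sizes.

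**Figure D2:**
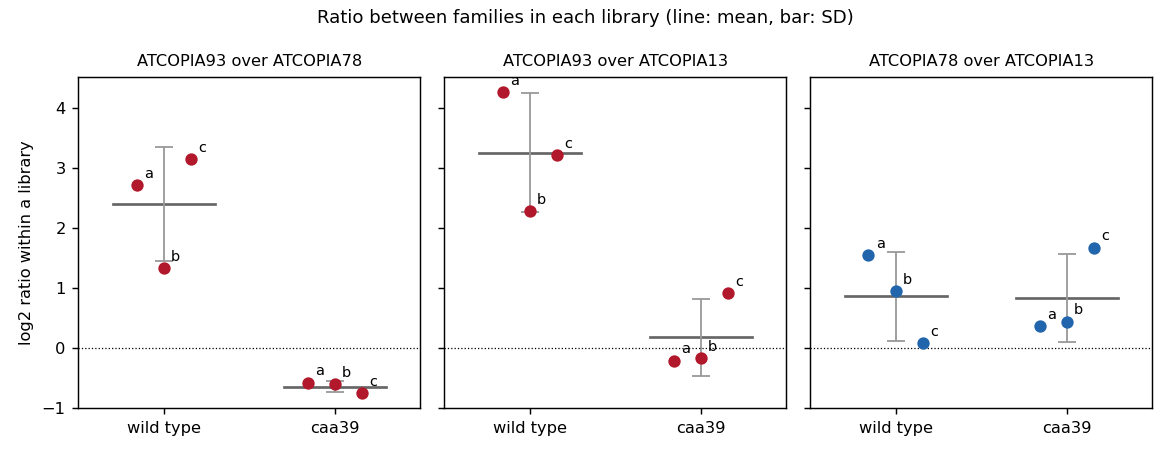
Log2 ratio between families within a library (vertical axis, pseudocount 0.5) for the 3 pairs without ATCOPIA21; points are libraries a, b and c, lines the mean and bars the SD (n = 3). ATCOPIA93 over ATCOPIA78 goes from 2.40 to −0.65 and ATCOPIA93 over ATCOPIA13 from 3.25 to 0.18 with no overlap, while the genotypes overlap for ATCOPIA78 over ATCOPIA13.

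As a share of the reads of the listed Copia families, ATCOPIA93 made up 2.89% ± 1.04 in wild-type and 0.787% ± 0.124 in caa39 libraries (SD, n = 3 each). ATCOPIA78 went from 0.533% ± 0.167 to 1.25% ± 0.281 (SD, n = 3 each). For ATCOPIA13 the wild-type share was 0.291% ± 0.0887 and the caa39 share 0.708% ± 0.192 (SD, n = 3 each). ATCOPIA21 made up 0.134% ± 0.0567 in caa39 (SD, n = 3). None of the shares overlapped between genotypes, and each had an exact permutation p of 0.1, two-sided (0.1 adjusted over the 4), again the smallest possible. Shares of other families were not tested, and on normalised reads 98.8% of the 83 families did not overlap. Summed, the 4 families held 304, 182 and 253 normalised reads in libraries a, b and c of the wild type, and 138, 150.5 and 156 in caa39 libraries a, b and c. Most of that sum was ATCOPIA93 in the wild type, and ATCOPIA78 was the largest part in each caa39 library.

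The wild-type libraries differed in ATCOPIA93 far more than counting error gives, and most of that spread came from library b. An index of dispersion, which is 1 when libraries differ by counting error alone, was 23.4 for ATCOPIA93 in the wild type and 0.622 in caa39. Among families averaging 20 or more normalised reads, the median index was 1.39 in the wild type (59 families) and 1.46 in caa39 (65 families). The coefficient of variation of ATCOPIA93 was 37.0% in the wild type, the 2nd highest of those 59 families, and 12.0% in caa39, the 26th highest of 65. The low library was b, at 114 normalised reads. Without it the wild-type index was 3.91 and the coefficient of variation 13.9%, in a comparison added after the values were seen. Among those 59 families, the only wild-type coefficient above the 37.0% of ATCOPIA93 was 44.4%, in the DNA transposon family ATHAT10. There library b was the high one, at 2953 normalised reads against 1462 and 1442. As in ATCOPIA93, library b was the lowest in ATREP15 (59.4, 29.9 and 59.6 in libraries a, b and c), placed 3rd. The same held for ATREP4 (108, 62.2 and 113) and ATENSPM5 (60.4, 34.6 and 60.8), placed 7th and 8th. In ATCOPIA78 and ATENSPM10, placed 4th and 5th, library b was the highest. In ATRE1, placed 6th, library a was the highest. Without wild-type library b the limma log2 fold change of ATCOPIA93 was −2.50 (adjusted p = 0.000499).

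In the wild type the other families with reads had a lower index than ATCOPIA93, while in caa39 each of the 3 had a higher one. ATCOPIA78 had an index of 2.95 in the wild type and 2.40 in caa39. ATCOPIA13 had 1.53 and 3.22, and its coefficient of variation in caa39, 30.0%, was the 4th highest of the 65 families. Without caa39 library c it was 2.22%. ATCOPIA21 had an index of 1.47 in caa39, on 23 reads.

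**Figure D3:**
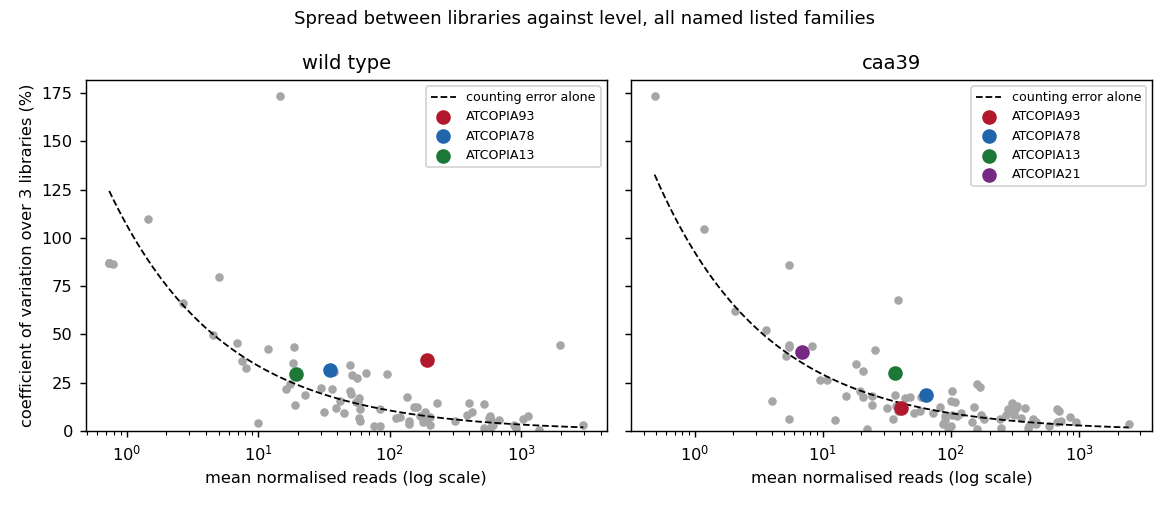
Coefficient of variation over 3 libraries (vertical axis, %) against mean normalised reads (horizontal axis, log scale) for the named listed families with reads in a genotype, wild type left and caa39 right; the dashed line is counting error alone at the mean size factor. ATCOPIA93 stands far above the line in the wild type at 37.0% and close to it in caa39 at 12.0%.

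The families with the most similar course over the 6 libraries were found by the Euclidean distance between log2(normalised reads + 0.5) values, each centred on the family's own mean. The 3 nearest to ATCOPIA93 were ATCOPIA12 at a distance of 0.963, the Helitron family ATREP9 at 1.04 and the MuDR family ATDNA1T9A at 1.12, against a median of 3.00 over the other 82 families. ATCOPIA12, a Copia family, held 172, 156 and 182 normalised reads in libraries a, b and c of the wild type, and 47.6, 48.0 and 35.0 in caa39. It fell nearly as far as ATCOPIA93, but its wild-type library b lay close to the others. Its limma log2 fold change was −1.96 ± 0.16 (SE; adjusted p = 0.000175).

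Nearest to ATCOPIA78 were the MuDR families ATMU2 (distance 0.406) and ATDNAI27T9C (0.600) and the Copia family ATCOPIA8B (0.752), with a median over the other families of 2.27. ATMU2 held 60.4, 63.4 and 47.4 normalised reads in libraries a, b and c of the wild type, and 90.8, 107 and 124 in caa39. Like ATCOPIA78 it was lowest in library c of the wild type and highest in library c of caa39. ATCOPIA13 had no neighbour as close: VANDAL1, HELITRONY3 and the Gypsy family ATGP2 stood at 0.885, 0.920 and 0.966. None of these was as low in caa39 library c, relative to libraries a and b, as ATCOPIA13 was. ATCOPIA21 was nearest to HELITRONY2 (0.440) and ATCOPIA79 (0.827), both also without reads in the wild type, and then to VANDAL20 (1.31), with a median of 5.20. These distances were measured on values that the listing had already chosen as changed, and are a description only.

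The other listed families named ATCOPIA numbered 20, of which 8 were higher and 12 lower in the authors' deposited table, with a median log2 fold of −0.61. Over all 83 families the median was −0.35, and over these 4 it was 0.90. In limma 7 of the 20 rose, 11 fell and 2 did not pass, ATCOPIA95 and ATCOPIA70. ATRE1, the Copia family with another name, rose as well. Of the 11 listed Gypsy families, the other large group of long terminal repeat elements, 7 rose and 4 fell in limma, with a median log2 fold change of 0.85. The fold of ATCOPIA93 in the authors' deposited table was undercut by 5 of the 21 other Copia families. Among these was ATCOPIA70, with 0, 0 and 36 reads in wild-type libraries a, b and c, whose libraries overlapped between genotypes. Its limma log2 fold change was −0.74 ± 1.95 (SE; adjusted p = 0.719). For ATCOPIA21, whose wild type is at 0 reads, both the limma log2 fold change and its place among the 25 Copia families depend on the pseudocount. It was 6.03, 3.80 and 2.91 at pseudocounts of 0.1, 0.5 and 1, the highest of the 25 each time. At a pseudocount of 5 it was 1.22 and came 4th, with ATRE1 highest at 2.67.

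**Figure D4:**
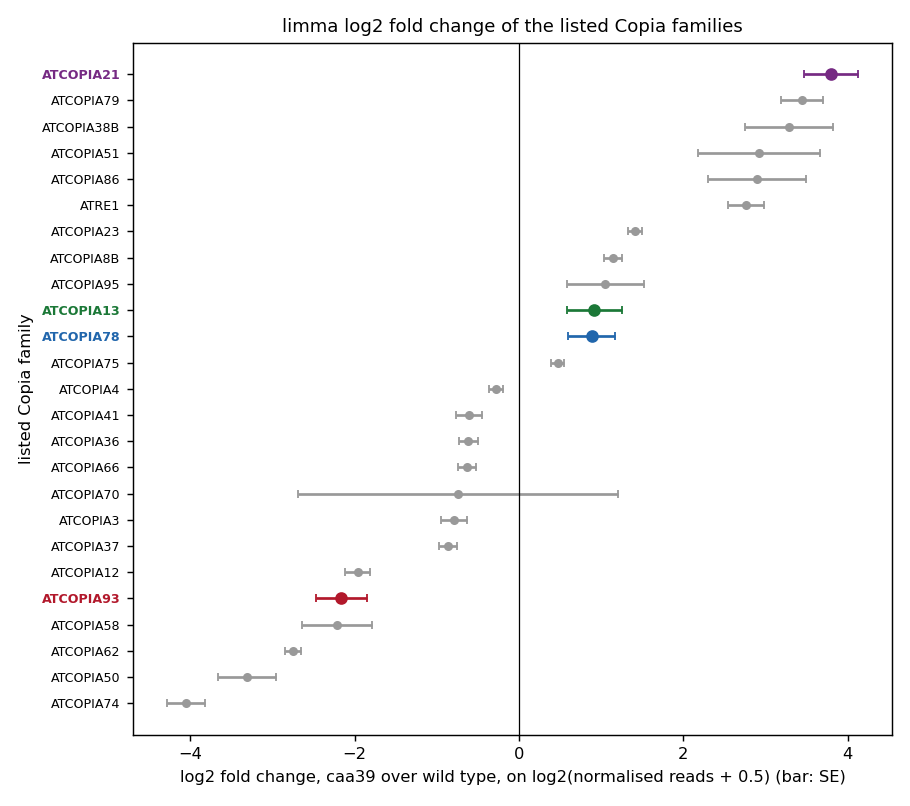
Log2 fold change of caa39 over wild type in limma (horizontal axis, on log2(normalised reads + 0.5), bars SE) for the 25 listed Copia families in order of change, the 4 families described here in colour. ATCOPIA93 at −2.16 lies among the larger falls, ATCOPIA78 and ATCOPIA13 at 0.88 and 0.92 among the smaller rises, and ATCOPIA21 is drawn at 3.80 over a wild type with no reads, a position that depends on the pseudocount of 0.5 (4th of the 25 at a pseudocount of 5).

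Among the 25 Copia families ordered by normalised reads, which are not per length of element and so rank depth and not expression, ATCOPIA93 moved from 5th in the wild type to 14th in caa39. In the wild type its libraries overlapped those of ATCOPIA75 next below and lay under ATCOPIA37 next above. In caa39 they overlapped those of both neighbours, ATCOPIA12 and ATCOPIA95. ATCOPIA78 went from 16th to 11th, and its caa39 libraries overlapped those of ATCOPIA66 above and ATCOPIA3 below. In the wild type it overlapped ATCOPIA50 above it and, by a narrow margin, not ATCOPIA13 below it. ATCOPIA13 was 17th and then 16th, overlapping ATCOPIA58 below it in the wild type and ATCOPIA95 above it in caa39, and lying above ATCOPIA51. ATCOPIA21 shared the lowest place in the wild type with ATCOPIA79 and ATCOPIA38B, all at 0 reads. In caa39 it was 20th, between ATCOPIA86 and ATCOPIA50, and overlapped both.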

How the data were processed

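RNA was taken from 6 libraries, grouped by the genotype in their titles; chromatin and bisulfite samples of the series were not analysed here. Per the submitters' processing notes the TAIR10 build, Bowtie2, FastQC 0.10.1 and edgeR 1.12.0 were used, in roles that are not stated. How reads matching several copies were assigned, and which program made the p-values, is not stated in the labels. Related families may share reads.

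Per the file headers, the deposited signal is a mean over a genotype's normalised counts, made by the authors. The deposited fold is the ratio of these means, the deposited log2 value its logarithm, and the deposited p-value is raw and adjusted. The wild-type mean was taken as 2 times the overall mean minus the caa39 mean, which differed from the printed one in 4 of 84 entries. The entry of unassigned elements (28.3% of listed reads) stayed out of all tests.

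Each mean was solved as a sum of 3 whole read numbers times library constants, within a relative tolerance of 1e-14 plus 2e-13. All 84 means of each genotype had 1 solution for the constants taken. Other constants also solve all means (1187 sets in all for the wild type and 1205 for caa39, within the range searched). In each genotype exactly 1 set had all size factors between 0.5 and 2, a range set after the solutions were seen, and it was taken; it also had the fewest reads. The 6 size factors had a geometric mean of 1.00, and with another set in either genotype it was at least 1.21. All SDs and library values rest on this choice, and reads cannot be tied to replicate numbers.

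On log2(normalised reads + 0.5), limma 3.58.1 (R 4.3.3) was fitted over the 83 named families, two-sided with Benjamini-Hochberg adjustment; solver and fit were tested on simulated data. The families had been listed for passing a test on these libraries, so these p-values are not independent evidence. Whole numbers were implied for 74 of 84 ranks, within a relative tolerance of 1e-08, at 23918 tests, against 37 at the next best number. Exact tests used scipy 1.17.1. The series design calls the libraries biological replicates. Families, lists and tests were chosen with earlier results of these data known. The families named are the 4, the 3 nearest to each, their neighbours in level among Copia families, and some chosen after their values were seen. The latter are ATHAT10, ATCOPIA70, ATRE1, ATREP15, ATREP4, ATENSPM5 and ATENSPM10.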

Additional observations from a re-analysis of the deposited data

How the results depend on the processing

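Directions of the 4 families held under other pseudocounts, scaling to listed reads, a trended spread and with any 1 library left out, and those of 3 under a minimum mean, which removed ATCOPIA21, although libraries that do not overlap fix this for all but the scaling. At an adjusted p below 0.01 in the authors' deposited table, ATCOPIA78 (0.0495) and ATCOPIA13 (0.0364) no longer pass, as a stricter limit constructs. With 1 library left out, the limma log2 fold change ran from 0.61 to 1.08 for ATCOPIA78 and from 0.65 to 1.19 for ATCOPIA13, with 2 and 4 of 6 fits short of the threshold on fewer libraries. The number of the 4 past the threshold then ran from 2 to 4, with 2 without caa39 library b, and that of all listed families from 76 to 81. Scaling to listed reads gave 69 listed families, 40 higher and 29 lower. The difference in the ratio of ATCOPIA78 to ATCOPIA13, −0.03, turned to 0.022 at a pseudocount of 5; leaving out a library gave −0.46 to 0.31, within its SE. The share changes, as all exact tests of 3 against 3, could not pass 0.05. No paired analysis was possible because nothing ties a solved library to the replicate number in its label. Depth limits ATCOPIA21, whose 23 reads allow only a bound.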
